A study of Mus musculus with 37 samples.

Results

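The 9 genes described here encode the core machinery that writes and reads methylation of histone H3 lysine 9 (H3K9). They were found by gene symbol in the deposited FPKM tables, which list 55401 genes, and all 9 had a row in both tables. Of these, 5 encode H3K9 methyltransferases (Setdb1, Suv39h1, Suv39h2, Ehmt1 and Ehmt2), 1 encodes the corepressor TRIM28, and 3 encode heterochromatin protein 1 (HP1) paralogs (Cbx1, Cbx3 and Cbx5). Bap1, which encodes the histone H2A deubiquitinase of the Polycomb repressive deubiquitinase complex, was deleted in mouse oocytes. Control oocytes were Bap1flox/flox, and knockout oocytes (CKO in the labels) were Bap1flox/flox with Gdf9-iCre, a Cre recombinase under the promoter of an oocyte growth factor gene, which recombines the floxed allele in the oocyte. The embryos came from such oocytes fertilized by wild type sperm, so that both embryo groups received an unaltered paternal Bap1 allele. Knockout embryos are therefore maternal knockouts (matKO), here called knockouts for short. Of the 37 libraries, 26 hold total RNA of 5 stages and 11 hold poly(A) RNA of 3 lineages at embryonic day (E) 6.5.

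There were 2 control and 3 knockout libraries at each of 4 stages, namely fully grown oocytes (FGO), MII eggs, the late 1-cell stage (L1C) and the late 2-cell stage (L2C). The early 2-cell stage (E2C) had 3 of each. The labels write the paternal side as x B6 for embryos up to the 2-cell stage and as x PWK at E6.5. The E6.5 lineages were epiblast (EPI) and visceral endoderm (VE), each in 2 libraries per genotype, and extraembryonic ectoderm (EXE), with a single control next to 2 knockouts. The number of oocytes or embryos per library and the age of the females are not given in the sources used here. Nor do the labels say that replicates came from separate animals, so p-values measure the spread between these libraries, which may be technical.

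Methylated H3K9 is a mark of silent chromatin. SUV39H1 and SUV39H2 methylate H3K9 mainly in pericentric heterochromatin, EHMT1 and EHMT2 (GLP and G9a) act as a dimer mainly in euchromatin, and SETDB1 is brought to retroelements and imprinted regions by TRIM28, which in turn is bound by KRAB zinc finger proteins. The chromodomains of HP1 alpha (Cbx5), HP1 beta (Cbx1) and HP1 gamma (Cbx3) bind the methylated residue. Oocytes load eggs with maternal transcripts, which are cleared after fertilization while the embryonic genome is switched on, in the mouse mainly at the 2-cell stage.

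All 9 genes matched RefSeq promoter windows (13 windows on GRCm38.p6). The bases before the start site are shown for the 5 genes that differed between genotypes in L2C embryos and whose first window kept at least 200 bases outside annotated exons. Capitals mark matches, on either strand, to the CCAAT box, the GC box GGGCGG, the homeodomain core TAATCC and the E-box CACGTG. They show what the start regions of genes that moved in opposite directions hold. Suv39h1 (chrX:8074761-8075010, minus strand), Trim28 (chr7:13023902-13024151, plus strand) and Cbx5 (chr15:103239853-103240102, minus strand) were lower in knockout L2C embryos. Suv39h2 (chr2:3475032-3475236, minus strand) and Cbx1 (chr11:96788885-96789126, plus strand) were higher.
Suv39h1: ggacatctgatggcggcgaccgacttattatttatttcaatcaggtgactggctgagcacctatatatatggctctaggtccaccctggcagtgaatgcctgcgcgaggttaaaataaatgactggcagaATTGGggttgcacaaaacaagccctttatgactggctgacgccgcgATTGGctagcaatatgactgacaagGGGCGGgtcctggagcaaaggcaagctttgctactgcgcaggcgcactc
Trim28: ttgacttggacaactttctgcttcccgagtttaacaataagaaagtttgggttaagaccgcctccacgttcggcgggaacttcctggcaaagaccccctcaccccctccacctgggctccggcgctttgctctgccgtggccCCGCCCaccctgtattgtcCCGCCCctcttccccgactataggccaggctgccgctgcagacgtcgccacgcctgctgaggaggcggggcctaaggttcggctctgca
Cbx5: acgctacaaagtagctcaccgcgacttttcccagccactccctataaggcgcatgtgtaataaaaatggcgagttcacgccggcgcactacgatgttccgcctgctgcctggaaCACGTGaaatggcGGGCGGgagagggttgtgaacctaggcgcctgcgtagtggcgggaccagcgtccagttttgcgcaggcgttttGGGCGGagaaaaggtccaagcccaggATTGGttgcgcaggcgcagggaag
Suv39h2: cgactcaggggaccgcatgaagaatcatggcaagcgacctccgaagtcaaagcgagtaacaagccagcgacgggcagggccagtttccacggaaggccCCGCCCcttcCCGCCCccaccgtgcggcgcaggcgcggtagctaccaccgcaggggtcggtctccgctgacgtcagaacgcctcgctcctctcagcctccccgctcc
Cbx1: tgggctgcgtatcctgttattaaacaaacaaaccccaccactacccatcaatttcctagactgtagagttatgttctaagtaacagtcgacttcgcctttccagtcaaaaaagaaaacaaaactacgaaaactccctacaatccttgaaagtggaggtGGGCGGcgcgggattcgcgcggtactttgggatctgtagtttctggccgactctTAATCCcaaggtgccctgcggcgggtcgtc

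The GC box was present in each of these stretches and in 32.74% of all 32851 windows of 250 bases. The CCAAT box occurred in the Suv39h1 and Cbx5 stretches and in 33.85% of all windows. The homeodomain core, bound by OTX2 and related proteins, occurred in the Cbx1 stretch and in 6.252% of windows. The E-box occurred in the Cbx5 stretch and in 6.021% of windows. A match is a description of letters and no evidence of binding, and the motifs do not overlap one another.

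On GRCm38 (GENCODE M21) the genes lie on 8 chromosomes: Setdb1 at chr3:95323525-95357202 (minus), Suv39h1 at chrX:8061171-8074760 (minus), Suv39h2 at chr2:3455815-3475031 (minus), Ehmt1 at chr2:24789928-24919614 (minus), Ehmt2 at chr17:34898469-34914052 (plus), Trim28 at chr7:12999114-13031035 (plus), Cbx1 at chr11:96789127-96808640 (plus), Cbx3 at chr6:51470360-51483704 (plus) and Cbx5 at chr15:103191544-103239816 (minus). Exons of Suv39h1 overlap the antisense gene Gm14820 over 767 bases, those of Suv39h2 overlap Dclre1c and Gm13184 over 440 bases, and those of Setdb1 overlap Cers2 and Gm37500 over 324 bases. Whether counting used the strand is not given in the sources used here, so values of these 3 genes may hold reads of their partners. The share of exonic 50-base words found in another annotated gene was 12.3% for Suv39h1, 10.2% for Setdb1, 8.67% for Cbx3, 4.89% for Suv39h2 and below 1% for the other 5.

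The genotype labels of the total RNA libraries were checked with Bap1 itself. There Bap1 was at 16.3 to 29.2 FPKM (fragments per kilobase of transcript, scaled to library size) in controls and 3.76 to 11.7 FPKM in knockouts. In E6.5 embryos it was at 14.0 to 22.6 FPKM in controls and 18.3 to 33.8 FPKM in maternal knockouts, so Bap1 does not check the E6.5 labels. All embryos, those up to L2C included, have the paternal allele. Oocyte markers (9 of 9 at 1 FPKM or more in every group up to L2C) summed to 3510.2 to 4123 FPKM in FGO. Cumulus and granulosa markers summed to 6.87 to 7.87 FPKM in control FGO and 2.45 to 2.87 FPKM in knockout FGO, with 1 of 8 genes reaching 1 FPKM. At E6.5, VE markers summed to 8278 to 10387 FPKM in VE and at most 19.3 FPKM elsewhere, EXE markers to 425 to 533 FPKM in EXE and at most 28.8 FPKM elsewhere, and epiblast markers to 1058 to 1504 FPKM in EPI, 475 to 578 FPKM in EXE and 49.3 to 166 FPKM in VE. Decidua and blood markers summed to at most 2.66 FPKM except in the VE knockouts, where the range was 0.203 to 35.1 FPKM.

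**Figure D1:**
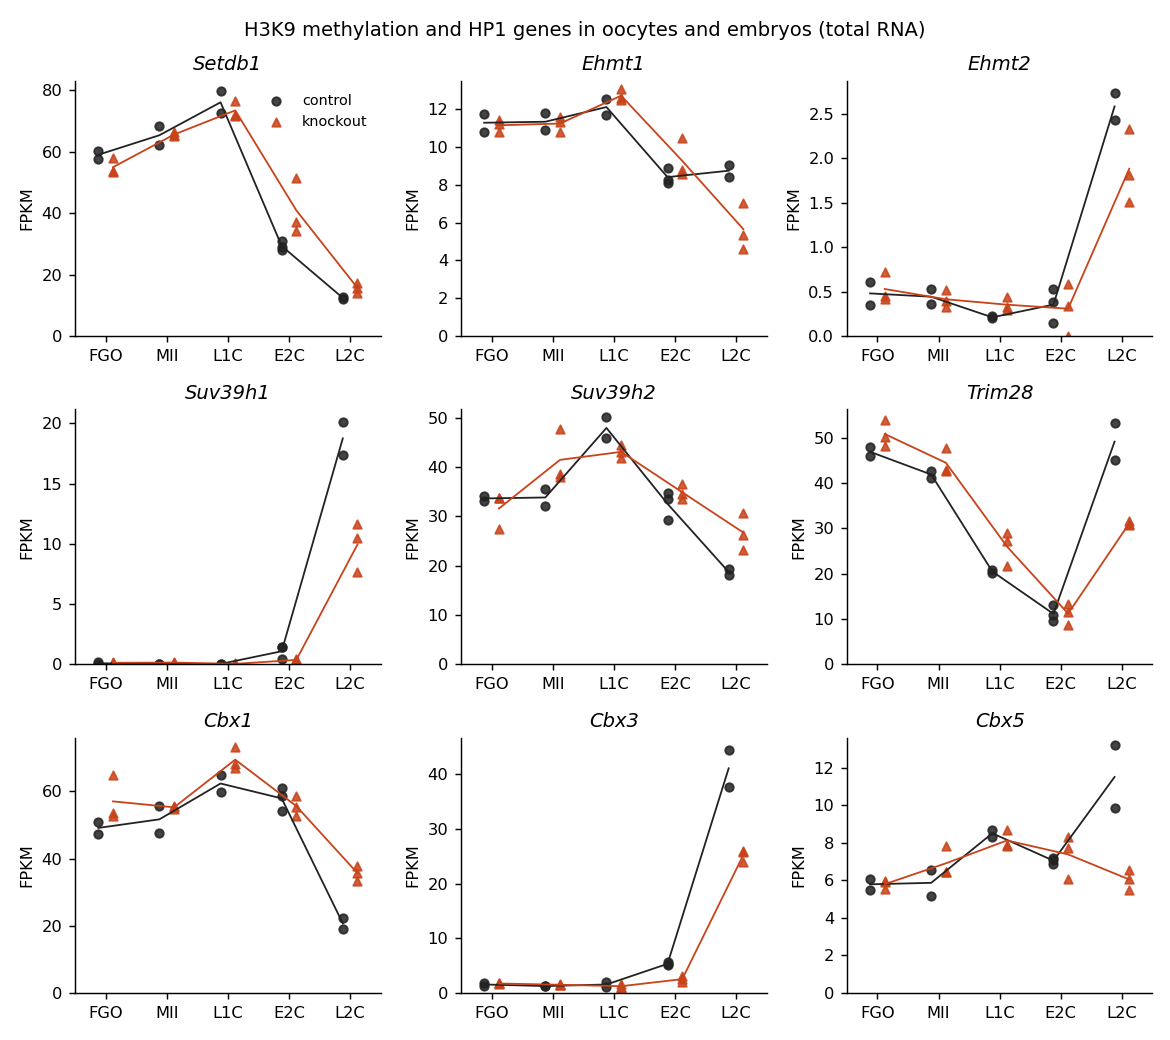
FPKM (vertical axis, from 0) of the 9 genes in each total RNA library by stage; circles are control and triangles knockout libraries, and lines join group means. Cbx1, Setdb1 and Suv39h2 were highest in L1C controls and lowest in L2C controls, whereas Cbx3, Suv39h1 and Ehmt2 stayed low up to E2C and were highest in L2C.

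In control oocytes the levels of the 9 genes spanned a wide range. Setdb1 (60.2 and 57.8 FPKM in the 2 control FGO libraries), Cbx1 (50.9 and 47.3), Trim28 (47.9 and 45.9) and Suv39h2 (33.1 and 34.2) were abundant, Ehmt1 (10.8 and 11.8) and Cbx5 (5.51 and 6.06) were intermediate, and Cbx3 (1.31 and 1.78), Ehmt2 (0.607 and 0.352) and Suv39h1 (0.0268 and 0.175) were scarce. Within each enzyme pair and within the HP1 family, 1 paralog thus made up most of the signal on the length-scaled FPKM scale. Suv39h1 made up 0.296% ± 0.304 (SD, n = 2) of the summed Suv39h1 and Suv39h2 FPKM, Ehmt2 4.11% ± 1.71 of Ehmt1 and Ehmt2, and Cbx1 87.0% ± 1.71 of the HP1 genes. FPKM keeps no read numbers, so counting error is unknown, and values this low carry the widest relative error.

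The step from FGO to MII in controls changed 0 of the 7 testable genes with limma on log2(FPKM + 1) at an adjusted p under 0.05, and 0 at an unadjusted p under 0.05. Of all genes tested, 0.624% were called higher and 3.6% lower at this step, and 17.6% had an unadjusted p under 0.05. Suv39h1 and Ehmt2 did not reach 1 FPKM in 2 libraries of this fit and were not tested. In bulk samples such as these, fewer cells of a type and less RNA per cell cannot be told apart.

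From MII to L1C, around fertilization, 4 of 7 genes rose and 1 fell in controls, against 9.69% of all genes called higher and 18% called lower. Trim28 fell from 42.7 and 41.1 FPKM in MII to 20.9 and 20.1 FPKM in L1C (log2 fold change -0.996, SE 0.12, adjusted p = 0.000236), with no overlap, as for 68% of all genes at this step. Suv39h2 rose from 32.1 and 35.5 to 45.8 and 50.03 FPKM (0.49, adjusted p = 0.00728) and Cbx5 from 6.56 and 5.17 to 8.32 and 8.69 FPKM (0.48, adjusted p = 0.0205). The rises of Cbx1 (0.27, adjusted p = 0.0339) and Setdb1 (0.22, adjusted p = 0.0461) were smaller. The fall of Trim28 held in every alternative run, whereas Suv39h2 was lost without control MII replicate 1 or control L1C replicate 2, and Cbx5 without control MII replicate 2 or either control L1C library. The call of Cbx1 was lost in 6 of 19 alternatives (adjusted p up to 0.249) and that of Setdb1 in 11 of 19 (adjusted p up to 0.349). The count of called genes ranged from 1 without control L1C replicate 2, through 2 without control L1C replicate 1 or control MII replicate 2, to 6 with centring on library medians. Centring also raised the share of higher calls among all called genes from 35.0% to 65.7%.

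From L1C to E2C, 2 of 8 testable genes rose and 4 fell in controls, against 17.6% and 31.3% of all genes. The balance of all calls at this step depended on the scaling: 35.9% of them were higher as deposited, 26.9% with TPM scaling and 53.4% with median centring. Called members numbered 4 to 8 over the alternatives, with Cbx1 (-0.29, adjusted p = 0.0205) and Cbx5 (-0.44, adjusted p = 0.0303) lower as well under TPM scaling. Setdb1, the enzyme that acts with TRIM28, fell from 72.5 and 79.6 FPKM to 30.9, 28.1 and 28.9 FPKM (-1.35, SE 0.15, adjusted p = 2.18e-05). Trim28 itself fell further, from 20.9 and 20.1 to 10.8, 9.47 and 13.2 FPKM (-0.83, adjusted p = 0.00319). Both genes thus had no overlap between these stages in controls, as was the case for 69% of all genes. Suv39h2 (-0.55, adjusted p = 0.000958) and Ehmt1 (-0.48, adjusted p = 0.00812) also fell, the latter not with median centring (-0.25, adjusted p = 0.144) or without control L1C replicate 1 (-0.43, adjusted p = 0.0788); over all alternatives the adjusted p of Ehmt1 ranged from 0.00176 to 0.144. Cbx3 rose from 1.13 and 1.94 FPKM to 5.30, 5.03 and 5.61 FPKM (1.33, SE 0.22, adjusted p = 0.000436). Suv39h1 rose from 0.0586 and 0.0257 FPKM to 1.41, 1.44 and 0.423 FPKM (0.96, adjusted p = 0.00603), on a scale that understates changes of such low values.

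From E2C to L2C, 5 of 9 genes rose and 3 fell in controls, against 30.7% and 23.9% of all genes. Of all calls 56.3% were higher, but 48.5% with TPM scaling and 43.3% with median centring, while 7 to 8 members were called in every alternative. Suv39h1 showed the largest change of the 9, from at most 1.44 FPKM to 20.1 and 17.4 FPKM (3.28, SE 0.26, adjusted p = 9.00e-07), a 17.2-fold ratio of means. Cbx3 rose from 5.30, 5.03 and 5.61 FPKM to 44.4 and 37.7 FPKM (2.73, SE 0.16, adjusted p = 1.31e-07), a 7.72-fold ratio. Trim28 rose again, from 10.8, 9.47 and 13.2 FPKM to 53.3 and 45.0 FPKM (2.05, SE 0.18, adjusted p = 1.92e-06), a level that overlapped that of control FGO. Each of these 3 genes had every L2C control above every E2C control, and 70.4% of all genes had no overlap in either direction.

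Ehmt2 rose from 0.528, 0.152 and 0.380 FPKM to 2.43 and 2.73 FPKM (1.41, adjusted p = 0.000399), and Cbx5 from 7.19, 6.86 and 7.09 FPKM to 9.83 and 13.2 FPKM (0.62, adjusted p = 0.0102). The rise of Cbx5 was lost without control L2C replicate 2 (0.43, adjusted p = 0.138) and with median centring (0.39, adjusted p = 0.0834), within a range of 0.000421 to 0.138. Cbx1 fell from 54.1, 58.7 and 60.9 FPKM to 19.1 and 22.3 FPKM (-1.44, SE 0.11, adjusted p = 8.62e-07). Setdb1 (-1.18, adjusted p = 7.74e-05) and Suv39h2 (-0.76, adjusted p = 0.000464) fell as well, so that both reached their lowest control level in L2C. Ehmt1, at 9.07 and 8.42 FPKM, did not pass the test (0.05, 95% interval -0.34 to 0.44).

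**Figure D2:**
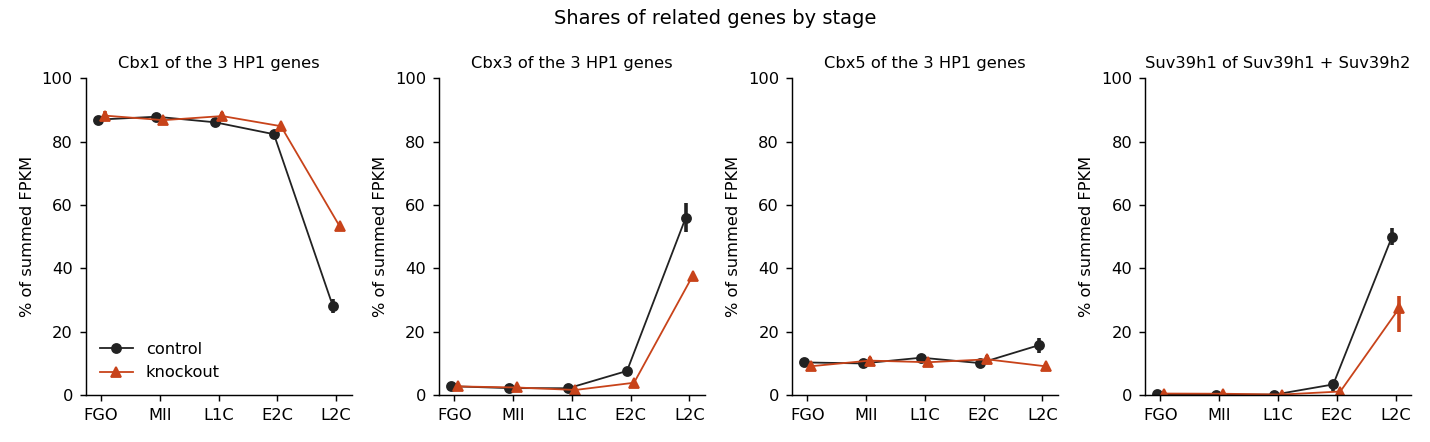
Share of the summed FPKM (vertical axis, 0 to 100%) held by Cbx1, Cbx3 and Cbx5 among the HP1 genes and by Suv39h1 among the SUV39H genes, by stage; symbols are group means and bars run from the lowest to the highest library. In L2C the Cbx1 share was 28.3% in controls and 53.3% in knockouts, and the Suv39h1 share 49.98% and 27.3%.

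The HP1 and SUV39H families changed in composition over this step. In controls, Cbx1 held between 81.2% and 88.2% of the summed HP1 FPKM in every library from FGO to E2C, and 26.04% and 30.5% in the L2C libraries. Cbx3 went from 7.58% ± 0.422 (SD, n = 3) in E2C to 56.0% ± 6.40 (n = 2) in L2C, and Suv39h1 from 3.31% ± 1.86 to 49.98% ± 3.72 of the SUV39H sum. The summed HP1 FPKM itself was 66.6 to 73.6 in E2C controls and 73.2 to 73.4 in L2C controls. Shares within a library do not depend on how libraries were scaled.

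In knockout FGO, MII and L1C, 0 of the 7 testable genes were called higher and 0 lower than in controls by limma. Among all genes, 1.34% were called higher and 7% lower in FGO, 4.17% and 7.84% in MII, and 6.22% and 8.71% in L1C. At an unadjusted p under 0.05 the counts were 0 of 7 in FGO, 1 in MII (Suv39h2) and 1 in L1C (Trim28), beside 25.2%, 28.4% and 31.8% of all genes. The median log2 fold change of the 7 genes was 0.00 in FGO, 0.10 in MII and -0.05 in L1C, and that of all genes -0.01, 0.00 and 0.03.

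Suv39h2 in MII was at 32.1 and 35.5 FPKM in controls and 38.0, 38.5 and 47.7 FPKM in knockouts (0.28, 95% interval 0.02 to 0.54, adjusted p = 0.154). Trim28 in L1C was at 20.9 and 20.1 FPKM in controls and 29.0, 27.3 and 21.7 FPKM in knockouts (0.32, 95% interval 0.03 to 0.61, adjusted p = 0.127). In both cases every knockout library lay above every control library. Of the 7 genes, 3 had no overlap in MII and 3 in L1C, beside 47% and 49.6% of all genes. Trim28 in L1C passed the test without knockout replicate 3 (0.44, adjusted p = 0.0230) and with the replicate number as a block (0.44, adjusted p = 0.00956), while over the alternatives the count of called genes in L1C ranged from 0 to 1. The block gives knockout replicate 3, which has no control of the same number, its own term. Both estimates thus rest on the same libraries and are not separate support. The intervals of Setdb1, -0.27 to 0.07 in FGO, -0.14 to 0.15 in MII and -0.21 to 0.11 in L1C, bound its difference at these stages. They were the narrowest of the 7 genes at each stage, and the widest was that of Cbx3 in L1C, -0.69 to 0.32.

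**Figure D3:**
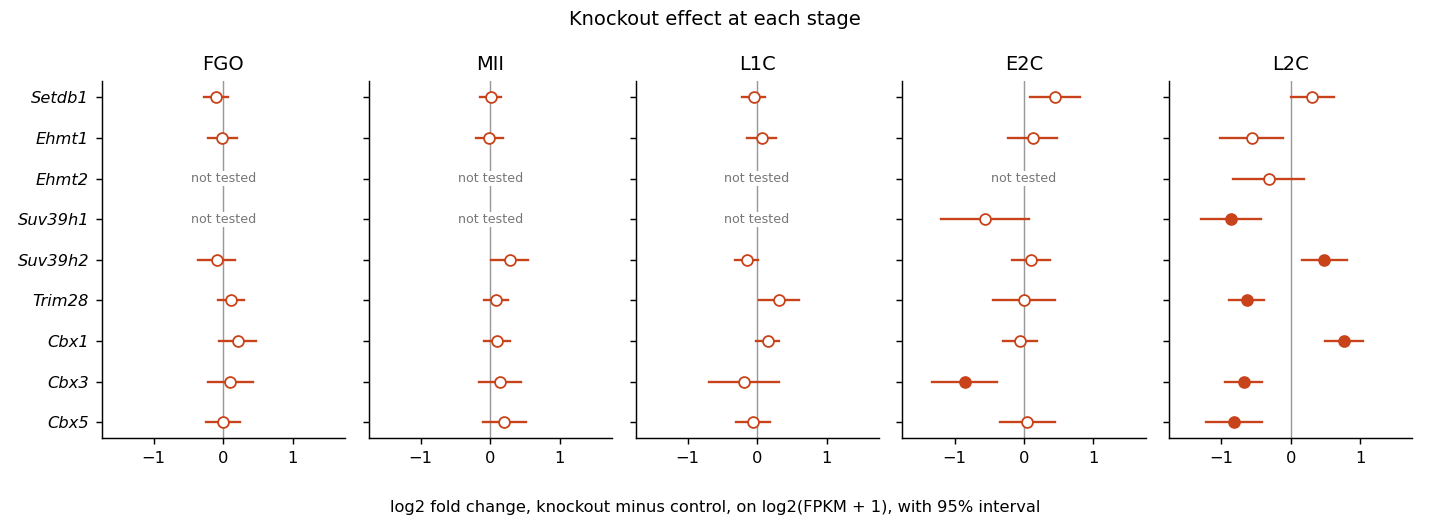
Log2 fold change of knockout against control (horizontal axis, on log2(FPKM + 1)) for the 9 genes at each stage; points are estimates from a fit of that stage alone, lines their 95% intervals, and filled points have an adjusted p under 0.05. There is 1 filled point in E2C (Cbx3) and there are 6 in L2C.

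In E2C embryos, 1 of 8 testable genes, Cbx3, was lower in knockouts and 0 were higher, against 5.87% of all genes called lower and 4.25% called higher. Cbx3 was at 5.30, 5.03 and 5.61 FPKM in controls and 1.93, 2.54 and 3.10 FPKM in knockouts (-0.85, SE 0.21, adjusted p = 0.0347), a ratio of means of 0.475. The groups did not overlap. The call was lost with no filter on low values (adjusted p = 0.0913), with the replicate number as a block (adjusted p = 0.0665) and when any library but knockout replicate 3 was left out (adjusted p up to 0.113). Its log2 fold change lay between -1.07 and -0.73 in all 14 alternatives, with adjusted p from 0.000165 to 0.113.

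Suv39h1 in E2C was at 1.41, 1.44 and 0.423 FPKM in controls and 0.411, 0.394 and 0.330 FPKM in knockouts (-0.56, 95% interval -1.19 to 0.07, adjusted p = 0.227). Setdb1 was at 30.9, 28.1 and 28.9 FPKM in controls and 37.1, 51.4 and 34.1 FPKM in knockouts (0.45, 95% interval 0.08 to 0.81, adjusted p = 0.112). Neither gene passed the test of this stage alone. With Cbx3, they were the 3 of 8 genes without overlap between genotypes, beside 33.9% of all genes. In a shared fit of all 26 libraries both were called (adjusted p = 0.0165 for Suv39h1 and 0.00302 for Setdb1), where the ranges over the alternatives were 0.0165 to 0.432 and 0.00302 to 0.278. That fit shares 1 spread over all stages, which an earlier look at these data found to understate the spread of E2C libraries. The other 5 testable genes had overlapping groups.

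In L2C embryos, 6 of the 9 genes differed between genotypes: Cbx1 and Suv39h2 were higher in knockouts, and Cbx3, Cbx5, Suv39h1 and Trim28 were lower. Of all 12718 genes tested at this stage, 19% were called higher and 19.5% lower, and 48.0% had an unadjusted p under 0.05, as 7 of the 9 did. The median log2 fold change of the 9 genes was -0.57, and that of all genes 0.03. All 9 had every knockout library on 1 side of every control library, as did 62.2% of all genes with these 3 and 2 libraries.

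Among the HP1 genes, Cbx1 was at 19.1 and 22.3 FPKM in controls and 37.8, 33.4 and 35.7 FPKM in knockouts (0.76, SE 0.12, adjusted p = 0.00203), 1.72-fold higher. Cbx3 was at 44.4 and 37.7 FPKM in controls and 25.9, 24.0 and 25.8 FPKM in knockouts (-0.68, SE 0.12, adjusted p = 0.00301), a ratio of 0.614. These 2 calls held in all 14 alternatives. Cbx5 was at 9.83 and 13.2 FPKM in controls and 6.55, 5.51 and 6.07 FPKM in knockouts (-0.82, SE 0.18, adjusted p = 0.00830), a ratio of 0.525, but the controls were far apart, and without control replicate 2 the call was lost (-0.62, adjusted p = 0.0713, within a range of 5.36e-05 to 0.0713).

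Cbx1 accordingly held 53.3% ± 0.502 (SD, n = 3) of the HP1 sum in knockout L2C embryos, against 28.3% ± 3.13 (n = 2) in controls. Cbx3 held 37.7% ± 0.746 against 56.0% ± 6.40. The summed HP1 FPKM was 62.9 to 70.3 in knockouts and 73.2 to 73.4 in controls.

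Among the methyltransferases, Suv39h1 was at 20.1 and 17.4 FPKM in controls and 10.5, 11.7 and 7.65 FPKM in knockouts (-0.87, SE 0.19, adjusted p = 0.00815), a ratio of 0.531. Its paralog Suv39h2 was at 18.1 and 19.3 FPKM in controls and 23.2, 26.2 and 30.7 FPKM in knockouts (0.48, SE 0.14, adjusted p = 0.0275), 1.43-fold higher. The paralogs thus moved in opposite directions, while their sum was 36.7 to 38.3 FPKM in controls and 33.7 to 38.4 FPKM in knockouts. The call of Suv39h1 was lost with no filter (adjusted p = 0.0513) and without control replicate 1 (-0.76, adjusted p = 0.0648), in a range of 0.000897 to 0.0648. That of Suv39h2 was lost in 6 of 14 alternatives, among them those without control replicate 1 (adjusted p = 0.134) or 2 (0.0842) and without knockout replicate 2 (0.0550) or 3 (0.0836), in a range of 0.00227 to 0.134.

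Ehmt1, the dimer partner of EHMT2, was at 9.07 and 8.42 FPKM in controls and 4.59, 5.34 and 7.03 FPKM in knockouts (-0.57, 95% interval -1.02 to -0.12, adjusted p = 0.0505), just above the threshold and below it in 5 of 14 alternatives. Among these, the replicate block and the run without knockout replicate 3 rest on the same libraries and gave the same estimate (-0.71). Setdb1 was at 12.7 and 12.1 FPKM in controls and 14.1, 17.1 and 15.8 FPKM in knockouts (0.31, 95% interval -0.0030 to 0.62, adjusted p = 0.107). Ehmt2, at 2.43 and 2.73 FPKM in controls and 2.33, 1.81 and 1.51 FPKM in knockouts, gave -0.32 with an interval of -0.84 to 0.19 (adjusted p = 0.283). None of these 3 genes was called.

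TRIM28, the link between zinc finger proteins and SETDB1, was represented by 53.3 and 45.0 FPKM in control L2C embryos and 31.7, 31.0 and 30.7 FPKM in knockouts (-0.64, SE 0.11, adjusted p = 0.00317), a ratio of 0.633. The call held in all 14 alternatives, with log2 fold changes of -0.76 to -0.51. In E2C the same gene had been at 10.8, 9.47 and 13.2 FPKM in controls and 8.65, 13.4 and 11.6 FPKM in knockouts, with overlap and an interval of -0.45 to 0.45.

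The stage step in controls and the knockout effect share the L2C control libraries and are therefore set side by side only. From E2C to L2C the ratio of means in controls was 17.2 for Suv39h1, 7.72 for Cbx3, 4.41 for Trim28, 1.63 for Cbx5, 0.576 for Suv39h2, 0.423 for Setdb1 and 0.357 for Cbx1. In knockouts it was 26.3 for Suv39h1, 10.0 for Cbx3, 2.78 for Trim28, 0.819 for Cbx5, 0.766 for Suv39h2, 0.383 for Setdb1 and 0.641 for Cbx1. The large ratios of Suv39h1 and Cbx3 in knockouts start from the low E2C values given above. Other values moved with genotype at this stage. The 9 oocyte markers summed to 554 to 589.9 FPKM in controls and 909.7 to 1078 FPKM in knockouts. The RNA Gm23935 took 20.2% to 23.1% of the summed FPKM in controls and 15.3% to 17.3% in knockouts. Scaling each library to the same total moved the median of all genes from 0.03 to 0.16 and the share of higher calls from 49.4% to 61.2%, yet 54.0% with Gm23935 left out of the total, and the 6 calls held in both. Suv39h1 is X-linked, and 4 Y-linked genes summed to 6.78 and 6.73 FPKM in control L2C libraries and 4.65, 1.19 and 5.26 FPKM in knockouts. The part of the oocyte transcripts or of embryo sex in these results was not tested.

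Whether the knockout effect changed from 1 stage to the next was tested as a difference of differences. For FGO to MII 0 of 7 genes were called (0% of all genes higher and 0% lower), for MII to L1C 0 of 7 (0.0423% and 0.00846%), and for L1C to E2C 0 of 8 (0.125% and 0.211%). At an unadjusted p under 0.05 these counts were 0, 1 and 2, beside 8.99%, 12.5% and 14.7% of all genes, and they were 0 at the adjusted threshold in every alternative. From E2C to L2C, Cbx1 was called with a more positive effect (0.82, SE 0.15, adjusted p = 0.00438) and Cbx5 with a more negative one (-0.87, SE 0.24, adjusted p = 0.0278), against 8.81% and 7.89% of all genes. At an unadjusted p under 0.05 there were 4 of 9, beside 30.6% of all genes. Cbx1 held in all 20 alternatives, whereas Cbx5 was lost with the replicate number as a block (adjusted p = 0.103) and without control E2C replicate 2, knockout E2C replicate 1, control L2C replicate 2, or knockout L2C replicate 2 or 3 (adjusted p up to 0.149). For Cbx3 the effect in L2C did not differ detectably from that in E2C (0.18, 95% interval -0.30 to 0.66).

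The genes around the 9 were taken from 6 lists of 45 partners. In FGO, 4 of the 41 testable partners were called lower and 0 higher, against 7% and 1.34% of all genes. Resf1, which binds SETDB1, was at 61.3 and 67.0 FPKM in controls and 44.8, 48.5 and 42.3 FPKM in knockouts (-0.50, adjusted p = 0.0204), and Atrx, a chromatin remodeller of heterochromatin, at 112 and 111 against 70.5, 72.4 and 71.7 FPKM (-0.63, adjusted p = 0.00331). Mecom, an H3K9 methyltransferase of the PRDM family, was at 1.74 and 1.86 against 0.602, 0.629 and 0.619 FPKM (-0.79, adjusted p = 0.0121), and Chaf1b, a subunit of a histone chaperone, at 5.64 and 5.76 against 3.75, 4.07 and 3.64 FPKM (-0.48, adjusted p = 0.0446). No overlap between genotypes was a condition for naming these 4 genes, and 46.5% of all genes had none in FGO.

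In MII, 3 of 41 partners were called lower and 0 higher, against 7.84% and 4.17% of all genes: Mecom (-0.84, adjusted p = 0.0113), Resf1 (-0.40, adjusted p = 0.0145) and Morc2a, the ATPase that works with the HUSH silencing complex (-0.39, adjusted p = 0.0381). In L1C, 6 of 41 were called lower and 1 higher, against 8.71% and 6.22% of all genes. Resf1 was at 81.8 and 88.6 FPKM in controls and 50.7, 56.1 and 58.9 FPKM in knockouts (-0.62, adjusted p = 0.00422), Lrif1, an HP1-binding protein, fell by 0.78 (adjusted p = 0.0116), and Lbr, the lamin B receptor that binds HP1, rose from 13.5 and 14.5 to 23.9, 21.0 and 17.5 FPKM (0.53, adjusted p = 0.0367). Mecom (-0.99, adjusted p = 0.0109), Zfp809 (-0.77, adjusted p = 0.0367) and the demethylase gene Kdm4a (-0.29, adjusted p = 0.0357) were lower as well. In E2C, Zfp57, the KRAB zinc finger that guards imprints, was at 845, 963 and 977 FPKM in controls and 1219.7, 1504 and 1226 FPKM in knockouts (0.50, adjusted p = 0.0354), while Zfp809, which brings TRIM28 to retroviral DNA, was at 22.6, 14.1 and 17.6 against 6.62, 5.24 and 11.7 FPKM (-1.15, adjusted p = 0.0340). Mecom was lower in E2C too (-1.13, adjusted p = 0.0298), which made 2 lower and 1 higher call among 42 partners at that stage, against 5.87% and 4.25% of all genes.

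In L2C, 8 of 44 partners were called higher and 11 lower, against 19% and 19.5% of all genes, with calls in both directions in 4 of the 6 lists. Of 8 TRIM28 partners 2 rose and 3 fell (median log2 fold change -0.17). Zfp57 was at 171 and 161 FPKM in controls and 358, 417 and 403 FPKM in knockouts (1.24, SE 0.09, adjusted p = 0.000153), and Zfp445, the other imprint guardian, at 15.2 and 15.2 against 6.28, 9.20 and 7.80 FPKM (-0.90, adjusted p = 0.00506). The 2 zinc finger genes thus moved apart.

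Of 7 methyltransferase partners 2 rose and 1 fell (median 0.13). Uhrf1, which reads H3K9 methylation and guides DNA methylation, was at 32.5 and 32.8 FPKM in controls and 59.1, 68.4 and 74.0 FPKM in knockouts (1.01, SE 0.12, adjusted p = 0.000585), and Zfp644, which joins EHMT1 and EHMT2, fell by 0.41 (adjusted p = 0.0216). Of the 5 HUSH and MORC2 genes 2 rose and 2 fell (median -0.40). Mphosph8, the chromodomain subunit, rose by 0.54 (adjusted p = 0.00792). Tasor, the scaffold, fell from 17.6 and 16.9 to 11.1, 9.95 and 10.5 FPKM (-0.67, adjusted p = 0.00520).

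Of 10 HP1 partners 2 rose and 2 fell (median -0.01), among them Hells, a remodeller (0.58, adjusted p = 0.00953), and Kmt5b, which methylates histone H4 at HP1-bound chromatin, from 31.5 and 24.2 to 15.8, 9.61 and 12.8 FPKM (-1.08, adjusted p = 0.00484). Of the 10 testable H3K9 demethylases 0 rose and 2 fell (median -0.12), Kdm3b from 10.9 and 9.50 to 3.43, 4.54 and 6.15 FPKM (-0.997, adjusted p = 0.00975). Of the 4 other methyltransferases 1 fell, Setdb2, from 22.8 and 24.1 to 14.4, 14.0 and 18.9 FPKM (-0.55, adjusted p = 0.0219). The median of all genes was 0.03, and 19.5% were called lower.

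Genes whose group means followed those of the 9 most closely over the 10 total RNA groups were sought among 8163 genes, as a description of points that share libraries. Pearson's r was 0.999 for Suv39h1 with both Nktr and Ccnjl, 0.998 for Cbx3 with both Ppp2cb and Ncbp1, 0.997 for Setdb1 with Nudt7 (0.996 with Hadha), and 0.997 for Ehmt2 with Emc1 (0.995 with Adnp). It was 0.993 for Cbx1 with Fxr1 (0.989 with Eed), 0.989 for Trim28 with Rps4l (0.985 with Map2k2), 0.984 for Suv39h2 with Asb8, and 0.983 for Ehmt1 with Wdr5 (0.979 with Cdc37). Cbx5, with Rnf4 and Rcc1, had the lowest best match, at 0.926.

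**Figure D4:**
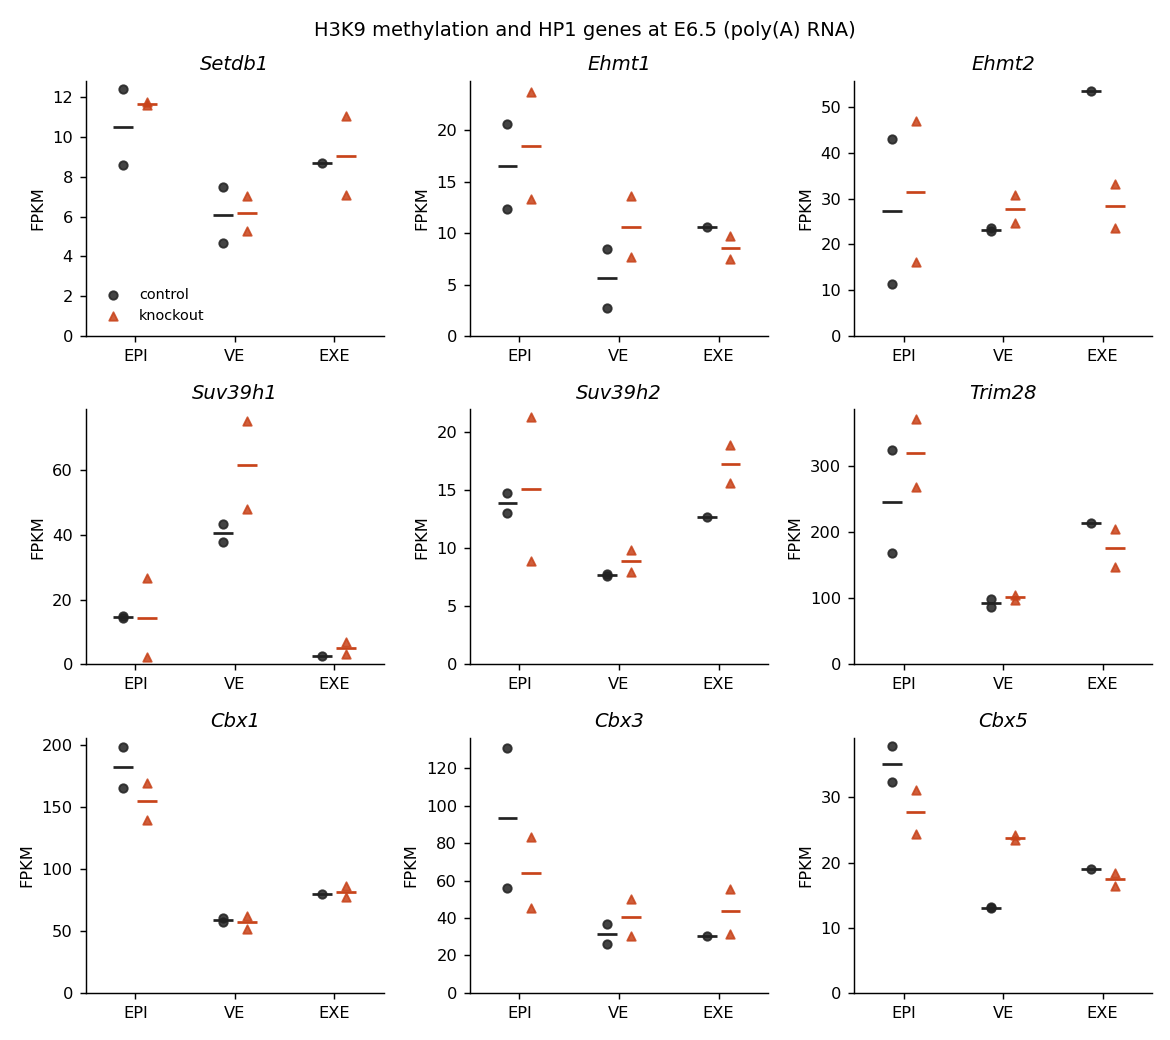
FPKM (vertical axis, from 0) of the 9 genes in each E6.5 library by lineage; circles are control and triangles knockout libraries, and horizontal bars are group means. Suv39h1 was highest in VE and lowest in EXE controls, and the 2 EPI libraries of a genotype lay far apart for Ehmt2 and Cbx3.

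At E6.5, levels were compared within the poly(A) table only. Averaged over genotypes, 6 of the 9 genes were higher in EPI than in VE and 1 was lower, against 21.6% and 16.8% of all genes. Cbx1 was at 198 and 165 FPKM in control EPI, 169 and 140 FPKM in knockout EPI, 60.2 and 57.2 FPKM in control VE and 51.8 and 62.0 FPKM in knockout VE (1.52, SE 0.19, adjusted p = 0.000203). Trim28 was at 324, 168, 371 and 267 FPKM in the same EPI libraries and 86.8, 99.2, 97.4 and 105 FPKM in VE (1.47, SE 0.26, adjusted p = 0.00155). Every EPI library exceeded every VE library for both genes, and 38.6% of all genes had no overlap in either direction.

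Suv39h1 ran the other way, with 14.9, 14.4, 2.23 and 26.6 FPKM in EPI and 43.2, 37.7, 75.0 and 48.0 FPKM in VE (-2.05, SE 0.57, adjusted p = 0.0177), so that it held 84.0% ± 1.52 (SD, n = 2) of the SUV39H sum in control VE and 51.4% ± 1.59 in control EPI. The lowest EPI value, 2.23 FPKM, came from knockout replicate 1, and without that library the difference was -1.28 (adjusted p = 0.00850), within a range of -2.82 to -1.28 and of 0.000116 to 0.116 for the adjusted p over the alternatives. Suv39h1 is X-linked, and 4 Y-linked genes summed to 0 FPKM in knockout EPI replicate 1, control EPI replicate 2, knockout VE replicate 1 and control VE replicate 2. These libraries held the lowest and the highest of the 8 Suv39h1 values, 2.23 FPKM in EPI and 75.0 FPKM in VE. The 2 control EPI libraries, at 38.1 and 0 FPKM for the Y-linked genes, had nearly equal Suv39h1 (14.9 and 14.4 FPKM). The part of embryo sex in this spread was not tested. Cbx5 (0.78, adjusted p = 0.0111), Ehmt1 (1.13, adjusted p = 0.0352), Setdb1 (0.77, adjusted p = 0.0408) and Cbx3 (1.04, adjusted p = 0.0415) were also called higher in EPI. Of the 7 calls, those of Cbx1 and Trim28 held in all 20 alternatives, that of Cbx5 was lost in 1, Suv39h1 in 5, Ehmt1 in 9, and Cbx3 and Setdb1 in 13 each. The count fell to 3 without control VE replicate 1 and to 4 without either knockout VE replicate or knockout EXE replicate 2.

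EXE had 2 genes called lower than EPI and 0 called higher, against 10.4% and 9.13% of all genes: Cbx1, at 80.0 FPKM in the control and 86.1 and 77.1 FPKM in the knockouts (-1.04, adjusted p = 0.00695), and Cbx5, at 19.1, 18.4 and 16.4 FPKM (-0.74, adjusted p = 0.0412). Cbx5 was lost when any 1 of 9 libraries was left out, with adjusted p up to 0.132. Against VE, 1 gene was higher and 1 lower in EXE, where 11.3% of all genes were called in each direction. Trim28 was at 213, 204 and 148 FPKM (0.98, adjusted p = 0.0344, lost in 9 of 18 alternatives), and Suv39h1 at 2.61, 3.15 and 6.87 FPKM (-3.47, SE 0.64, adjusted p = 0.00340). All EXE values of Suv39h1 lay below all VE values, and 40.3% of all genes had no overlap in either direction. The lone EXE control was assumed to vary like the other groups.

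Between genotypes at E6.5, 0 of the 9 genes were called in EPI (0% of all genes called higher and 0% lower), in VE (0% and 0.00719%) or in EXE (0% and 0%), by limma and in every alternative run. At an unadjusted p under 0.05 the counts were 0, 1 and 0 of 9, beside 3.37%, 1.78% and 1.80% of all genes. The 1 gene was Cbx5 in VE, at 13.0 and 13.1 FPKM in controls and 23.4 and 24.2 FPKM in knockouts (0.82, 95% interval 0.20 to 1.44, adjusted p = 1.00). Sums of VE and EXE markers also did not overlap between the genotypes in VE, whereas those of epiblast markers did. VE markers summed to 10116 to 10387 FPKM in controls and 8278 to 8526 FPKM in knockouts, epiblast markers to 49.3 to 113.5 and 113.2 to 166 FPKM, and EXE markers to 12.8 to 14.9 and 20.7 to 28.8 FPKM. Of 7 epiblast markers, 3 reached 1 FPKM in each genotype. The epiblast marker Pou5f1 was at 0 in every VE knockout library, but not in every VE control. Cbx5 was itself higher in EPI than in VE, and the part of these markers in its difference was not tested. The 95% intervals were wide, from -0.83 to 0.36 for Cbx1 in EPI to -1.55 to 2.87 for Suv39h1 in EXE, which has a single control.

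The 2 EPI libraries of each genotype differed widely. Ehmt2 was at 43.1 FPKM in control and 46.9 FPKM in knockout replicate 1, and at 11.3 and 16.1 FPKM in replicate 2, whereas Cbx3 was at 56.2 and 45.2 FPKM in replicate 1 and 131 and 83.1 FPKM in replicate 2. The spread within a genotype exceeded the difference between genotypes for both genes. Bap1, as given above, was not lower in the knockout libraries of any E6.5 lineage.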

How the data were processed

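Per the labels' protocols, total RNA of the 26 early samples went through the SMART-Seq Stranded Kit, and poly(A) RNA of the 11 E6.5 samples through SMART-Seq mRNA with Nextera XT. The submitters' processing notes name Trim Galore 0.6.6, STAR 2.7.9, StringTie 2.1.7 and mm10. The authors deposited FPKM, 1 column per library in 1 table per library type, although the column names end in rpkm. The tables were normalized separately, so tests stay within a table, and 0 columns were unmatched. The deposited column of control EPI replicate 1 lists 1 gene just below 0, which was set to 0.

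Values were tested as log2(FPKM + 1) with limma 3.58.1 in R 4.3.3, for genes that reached 1 FPKM in 2 or more of the fitted libraries, with Benjamini-Hochberg adjustment over all genes tested and a threshold of 0.05. Such fold changes understate low genes. Genotypes were compared in a fit of each stage alone, steps and differences of effects in fits of 2 consecutive stages, and lineages in 1 fit of the 11 E6.5 libraries. The number of libraries limits the precision, since the depth is unknown. The scripts were tested on simulated data.

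Any of the 9 genes could be named in any comparison, but values of each are not given for all comparisons. At E6.5, Suv39h2 and Ehmt2 were called in none of the main lineage comparisons. Suv39h2 was called in 1 of 20 alternatives for EPI against VE and in 3 of 18 for EXE against VE. From each partner list, at most the gene that rose most and the one that fell most per genotype comparison are named, among those called and not overlapping between genotypes. The 9 genes and the lists were chosen with earlier results of these data known. A motif of the 2-cell factor DUX was searched as well and is left out because it is rare in windows of this length. Alternatives were a pseudocount of 0.1, no filter, a mean of at least 5 FPKM, scaling each library to the same total (TPM), median centring, shared fits, the replicate number as a block, array weights and leaving out each library. For genotype effects at stages with 2 controls and 3 knockouts, the block leaves knockout replicate 3 without influence on the estimate. It then repeats the estimate of the run without that library, as for Suv39h2 in L2C (0.38). Array weights for each lineage, a block shared across lineages and the total without Gm23935 were added after seeing the data. Tables were made with Python 3.11.15, pandas 2.3.3 and numpy 2.4.6, and plots with matplotlib 3.10.9.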

Additional observations from a re-analysis of the deposited data

Results flagged for a closer look

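The knockout effect on 2 HP1 genes differed between E2C and L2C embryos by limma's test of the difference itself. Of all genes, 8.81% were called with a more positive and 7.89% with a more negative effect. For Cbx1, the log2 fold change of knockout against control was -0.06 in E2C and 0.76 in L2C, a difference of 0.82 (SE 0.15, adjusted p = 0.00438). For Cbx5 it was 0.05 in E2C and -0.82 in L2C, a difference of -0.87 (SE 0.24, adjusted p = 0.0278). The call of Cbx5 was lost in 6 of 20 alternatives (adjusted p up to 0.149), that of Cbx1 in none.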

How the results depend on the processing

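Of 2729 single-gene values recomputed under an alternative, 2591 kept their side of the threshold, 111 lost a call, 27 gained one, and 0 calls changed direction. Values that were called in neither run could change sign, as for Suv39h1 between genotypes in EPI (-2.27 to 0.82 over the alternatives). The count of called genes was the same in every alternative for FGO, for EPI, VE and EXE between genotypes, and for the step from FGO to MII (0 each). In L2C it ranged from 4 to 8. In MII it was 1 with array weights for each stage. In L1C it was 1 with stage weights and 1 with the replicate block (0 to 1 without 1 library). In E2C it was 0 with no filter, 0 with a mean of at least 5 FPKM, which leaves Cbx3 out of the test, 0 with the replicate block, 3 in the shared fit and 2 with stage weights (0 to 1 without 1 library). The shared fit understates the spread of E2C libraries, as given above. For L1C against MII in controls it was 3 with TPM scaling, 3 with no filter and 3 in the shared fit (1 to 5 without 1 library). For the difference between E2C and L2C it was 4 in the shared fit and 1 with the replicate block (1 to 2). For EPI against VE it was 4 with lineage weights, 3 with no filter and 2 with the replicate block (3 to 7). For EXE against EPI it was 1 with a mean of at least 5 FPKM, 1 with median centring and 1 with either replicate block (1 to 2), and for EXE against VE 1 with no filter and 1 with either replicate block (1 to 3). Beyond what each alternative's construction shows, the cause was not tested. EXE against control could not be fitted without its lone control.

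Replicate numbers come from the titles, which do not say that they pair samples. At E6.5 the Y-linked sums of a genotype went with the number across lineages. Control replicate 1 (38.1, 52.5 and 25.9 FPKM in EPI, VE and EXE) and knockout replicate 2 (68.0, 48.1 and 39.9) were above 0. Knockout replicate 1 was at 0 in every lineage, and control replicate 2 in EPI and VE. The main lineage fit treats these libraries as independent. With a block shared across lineages, limma lost the EPI against VE calls of Cbx3 (adjusted p = 0.0720) and Setdb1 (0.0864). Deviations of same-numbered libraries correlated at -0.09 to 0.17 in the total RNA stages, and at 0.61 in EPI and 0.46 in VE, where only 2 pairs exist.

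TPM scaling moved the median log2 fold change of all genes from 0.03 to 0.13 in E2C, from -0.17 to -0.38 for E2C against L1C and from 0.05 to -0.09 for L2C against E2C, and median centring moved the last to -0.18, E2C against L1C to 0.06 and L1C against MII from -0.04 to 0.13. The share of higher calls between genotypes went from 16.1% to 28.8% in FGO and from 34.8% to 47.6% in MII with centring, and from 41.6% to 53.1% in L1C and from 42.0% to 57.2% in E2C with TPM scaling. Centring moved that share from 37.2% to 49.3% for the difference between L1C and E2C.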
